A study of Mus musculus with 12 samples.

Results

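Galectins and the S100 proteins of memory-type lymphocytes were followed across sorted mouse B cells as 8 named genes, namely Lgals1, Lgals3, Lgals8, Lgals9, S100a4, S100a6, S100a10 and S100a11. A probe set was taken where its single gene symbol was 1 of the 8, which gave 11 probe sets for 7 genes, out of 45037 probe sets and 18193 genes. The only probe set of S100a11 also carried the symbols Gm12854 and S100a11-ps, so S100a11 has no value here. RNA was measured on 12 Affymetrix arrays in 4 groups of 3, all from female C57BL/6 mice and all from cells sorted by flow cytometry with no culture. The groups were age associated B cells (old ABC) from the spleen of mice older than 15 months, B1 cells (old B1) from the peritoneal cavity at the same age, B1 cells (young B1) from the peritoneal cavity at 8 weeks, and follicular B cells (old FO) from the spleen of mice older than 15 months. Titles call the B1 cells B1a, and the labels give neither the surface markers of the sorts nor whether a replicate was 1 mouse, a pool or a repeated sort, so the p-values speak only of the spread among these arrays, which may be technical.

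Galectins are lectins that bind galactose-containing sugars on glycoproteins, and they act both outside the cell, where they cross-link surface receptors, and inside it. S100 proteins are small calcium-binding proteins of the EF-hand type that attach to partners such as annexins and myosin and thereby act on the membrane skeleton and on movement. In lymphocytes, transcripts of Lgals1, Lgals3, S100a4, S100a6, S100a10 and S100a11 are known as genes that memory and effector cells hold at higher levels than naive cells.

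The values are the intensities deposited by the authors, and a difference is a log2 value with its standard error (±) from 1 limma fit of all 12 arrays, n = 3 arrays in each group. A gene is called when its limma p, adjusted over all 18193 genes, is under 0.05, and "rose" and "fell" are used only for called genes. Among the arrays 2 stood apart, namely old B1 replicate 3 with a 75th percentile of intensity of 346 and old FO replicate 2 with 378, where the remaining 10 had 400.1 to 412. The summed intensity of 9 B cell identity markers was 57630 to 58620 in old ABC and 58290 to 61980 in old FO. It was 55000 to 55960 in old B1 and 53680 to 54490 in young B1. Of the 9, 1 rose and 4 fell in old B1 against old FO (55.6%, beside 16.4% of all genes called). In old ABC, 0 rose and 1 fell against old FO (11.1%, beside 9.96%), and 2 rose and 0 fell against old B1 (22.2%, beside 12.8%). Pax5 was under the array median on all old B1 arrays. A set of 5 ABC markers summed to 10020 to 13480 in old ABC and to 1380 to 2016 in the other groups. A set of 8 B1 markers summed to 15060 to 20510 in the B1 groups. These summed to 9354 to 10430 in old ABC and 1557 to 2676 in old FO. All 8 rose in old B1 against old FO, beside 16.4% of all genes called. In old ABC against old B1, 1 rose and 3 fell (50%, beside 12.8% of all genes called). Spn went against the sum, with means of 3820 in old ABC, 1429 in old B1 and 1715 in young B1. The 4 FO markers summed to 16450 to 18370 in old FO against 2387 to 4564 elsewhere. Without the 2 arrays that stood apart, the 7 genes gave 5 called in old ABC against old FO, 3 in old ABC against old B1, 5 in old B1 against old FO and 0 in old B1 against young B1, while 16.3%, 17.5%, 22% and 1.14% of all genes were called in that fit. In sorted populations measured in bulk, fewer cells of a type and less RNA per cell cannot be told apart.

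The galectins did not share a direction. Lgals1 encodes galectin-1, which acts on adhesion and survival and is a ligand of the pre-B cell receptor in the marrow. Its intensity was 14213, 16681 and 16353 in old ABC, 14732, 14275 and 15859.5 in old B1, 15022, 14921 and 15887 in young B1, and 3406, 4353 and 3122 in old FO. The 9 arrays of old ABC and the B1 groups overlapped with one another, and all lay above every old FO array. Lgals3 encodes galectin-3, which macrophages also make in quantity. It read 3673, 4089 and 3792 in old ABC, 2457, 1968 and 2623 in old B1, 2076, 2504 and 3256 in young B1, and 535, 351 and 655 in old FO. Here old ABC stood above every array of the other groups, the B1 groups overlapped, and old FO lay below the rest.

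Lgals9 and Lgals8 gave other orders. Lgals9 encodes galectin-9, which binds the checkpoint receptor TIM-3 and, on mouse B cells, the phosphatase CD45. Its intensity was 955, 596 and 790.2 in old ABC, 1147, 1114 and 1134 in old B1, 1254, 1035 and 1332 in young B1, and 1533, 1990.1 and 1649 in old FO. Old FO arrays were the highest and old ABC arrays the lowest, with no overlap between old ABC, the B1 groups and old FO. Lgals8 encodes galectin-8, which marks damaged vesicles for autophagy. The brightest probe set of Lgals8 gave 1519, 1540 and 1965 in old ABC and 1580, 1878 and 1710 in old FO. It gave 1194, 1432 and 1563 in old B1 and 1591, 1296 and 1403 in young B1. From high to low the groups ran old FO, old ABC, young B1 and old B1, with overlap at each step. On the dimmer probe set, old ABC (554 to 567) overlapped neither old B1 (346 to 549) nor young B1 (386 to 472). Lgals8 was not called with either probe set.

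The S100 genes were highest in the peritoneal B1 cells of either age. S100a4 encodes a protein that binds non-muscle myosin and promotes cell movement. Its intensity was 3516, 2737 and 1889.6 in old ABC, 8127, 7915 and 9209 in old B1, 8504, 8626 and 9266 in young B1, and 527, 418 and 760.1 in old FO. Old ABC thus lay between the B1 groups and old FO, apart from both. S100a6 encodes calcyclin, a partner of the ubiquitin ligase adaptor CACYBP. It read 5439, 2512 and 2580.0 in old ABC, 11524, 11472.5 and 12861 in old B1, 11573, 11762 and 12398 in young B1, and 1636, 1460 and 1425 in old FO. The order was the same as for S100a4, and old ABC replicate 1 stood well above the other old ABC arrays. S100a10 encodes the p11 subunit that pairs with annexin A2 and, unlike its relatives, does not bind calcium. Its brightest probe set gave 8147, 8963 and 8774 in old ABC, 9707, 10188 and 10413 in old B1, 9586, 10116 and 9978 in young B1, and 6595, 7541 and 7374 in old FO. The steps were narrow, but old ABC again overlapped neither the B1 groups nor old FO.

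**Figure D1:**
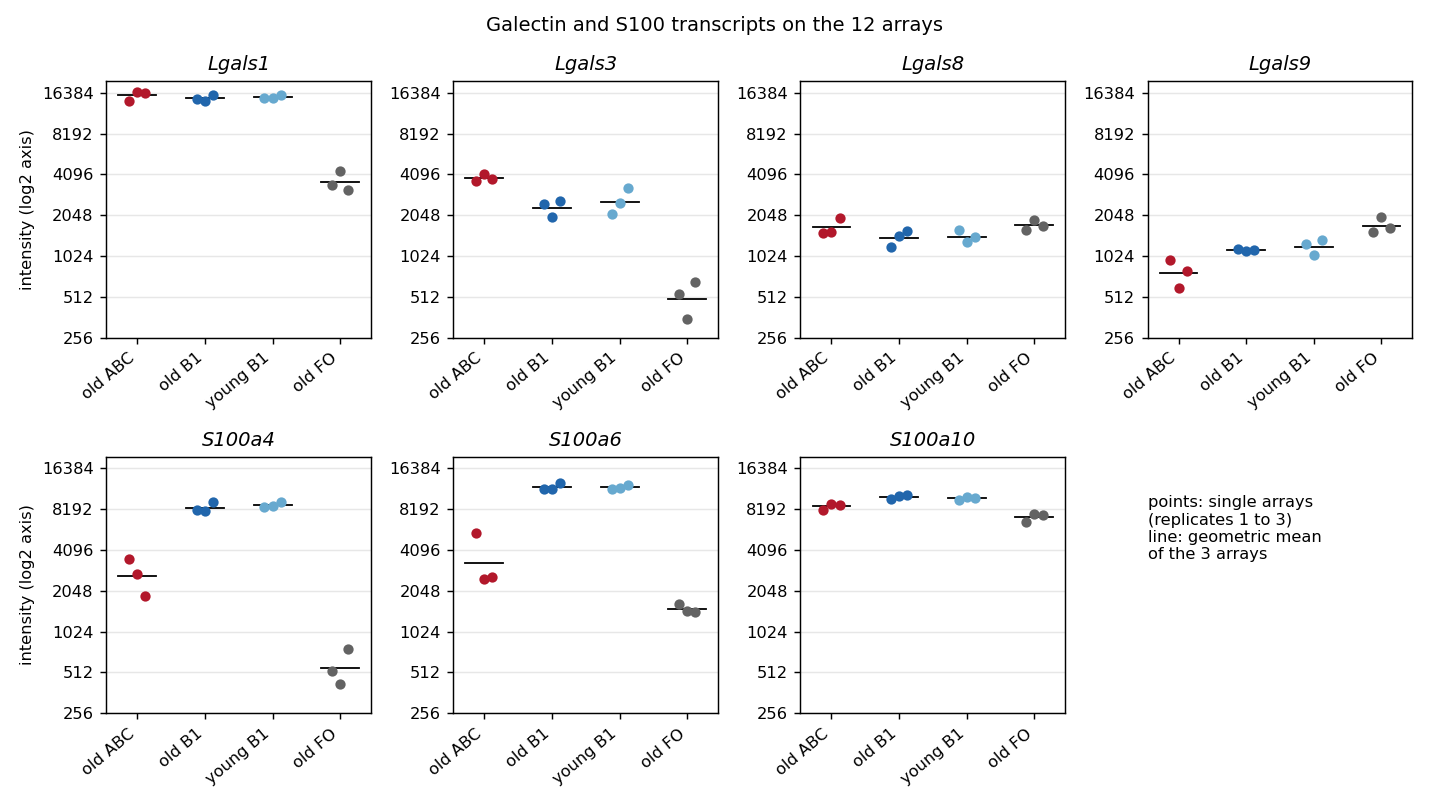
Intensity of the 7 measured galectin and S100 genes on each of the 12 arrays (log2 axis). Points are arrays and lines are geometric means of the 3 arrays of a group. Lgals1 lies at 14213 or above in old ABC and both B1 groups and at 4353 or below in old FO, while S100a4 lies at 7915 or above in the B1 groups, between 1889.6 and 3516 in old ABC and at 760.1 or below in old FO.

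The promoters of 4 of these genes are shown because S100a4 and S100a6 are near neighbours whose levels moved together, while Lgals3 and Lgals9 had opposite orders across the groups. In the RefSeq gene table the S100 genes of this cluster run S100a1, S100a13, S100a14, S100a16, S100a3, S100a2, S100a4, S100a5, S100a6, S100a7a, S100a8 and S100a9 along chromosome 3, so that S100a5 alone lies between S100a4 and S100a6. The sequences are the 250 bases before the annotated start in RefSeq's table for build GRCm38.p6, read on the gene's strand, and 6 of the 8 genes had an entry. Capitals mark motif matches on either strand. The windows are chr3:90603520-90603769 (plus strand) for S100a4, chr3:90612644-90612893 (plus strand) for S100a6, chr14:47373610-47373859 (plus strand) for Lgals3 and chr11:78984925-78985174 (minus strand) for Lgals9.
S100a4: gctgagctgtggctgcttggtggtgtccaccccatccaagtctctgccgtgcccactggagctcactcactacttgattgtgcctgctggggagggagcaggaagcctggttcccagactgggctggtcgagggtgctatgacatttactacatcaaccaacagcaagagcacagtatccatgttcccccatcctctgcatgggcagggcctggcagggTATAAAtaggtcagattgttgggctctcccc
S100a6: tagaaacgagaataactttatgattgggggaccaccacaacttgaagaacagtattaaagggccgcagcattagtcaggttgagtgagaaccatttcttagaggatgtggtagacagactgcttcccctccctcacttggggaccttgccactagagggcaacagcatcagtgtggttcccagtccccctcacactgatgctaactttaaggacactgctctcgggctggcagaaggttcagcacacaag
Lgals3: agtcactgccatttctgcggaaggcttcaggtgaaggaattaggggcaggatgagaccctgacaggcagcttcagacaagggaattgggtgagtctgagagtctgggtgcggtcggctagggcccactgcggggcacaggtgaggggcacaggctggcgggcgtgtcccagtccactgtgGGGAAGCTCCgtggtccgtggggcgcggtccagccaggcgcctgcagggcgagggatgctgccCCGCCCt
Lgals9: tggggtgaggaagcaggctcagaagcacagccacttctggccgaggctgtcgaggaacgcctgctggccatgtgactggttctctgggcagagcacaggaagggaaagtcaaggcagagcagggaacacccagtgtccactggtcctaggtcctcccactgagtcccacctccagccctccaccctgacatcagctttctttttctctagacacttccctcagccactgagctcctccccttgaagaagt
A TATA box (TATAAA), which 12.4% of 32851 promoters hold in the same window, was found 31 to 26 bases before the start of S100a4 and in no other window of these genes. Lgals3 held a GC box (GGGCGG, 32.7% of promoters) 7 to 2 bases before its start and a match to the NF-kappaB motif (7.25% of promoters) 70 to 61 bases before it, and the matches did not overlap. S100a6 and Lgals9 held none of the motifs searched, which also included AP-1 (TGACTCA or TGAGTCA, 4.46% of promoters), an E-box (CACGTG, 6.02%) and a T-box half-site (GGTGTGA, 3.33%). Of the windows not shown, that of S100a11 matched AP-1, the E-box and the GC box, and that of Lgals8 matched NF-kappaB. The windows were 57.2% G and C in S100a4, 50% in S100a6, 66% in Lgals3 and 58.4% in Lgals9.

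Old ABC against old FO sets age associated B cells beside resting follicular cells from the same organ of equally old mice. Transcripts of 2 galectins and 2 S100 proteins rose in old ABC and 1 galectin fell. Lgals3 rose by 2.95 ± 0.23 (7.74-fold, adjusted p = 2.42e-05), Lgals1 by 2.13 ± 0.13 (4.38-fold, adjusted p = 5.57e-06), S100a4 by 2.25 ± 0.24 (4.77-fold, adjusted p = 0.000181) and S100a6 by 1.12 ± 0.24 (2.18-fold, adjusted p = 0.0143). Lgals9 fell by 1.16 ± 0.17 (2.24-fold lower, adjusted p = 0.00156). In all, 5 of the 7 genes were called, 4 higher and 1 lower, beside 9.96% of all genes called, 7.12% higher and 2.84% lower. The median difference of the 7 was 1.12, against -0.03 over all genes.

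S100a10 and Lgals8 were not called in this comparison. S100a10 differed by 0.27 ± 0.09 (95% interval 0.07 to 0.47, adjusted p = 0.1) with no overlap of arrays, and Lgals8 by -0.05 ± 0.14 (95% interval -0.37 to 0.27, adjusted p = 0.925). S100a6 is the least firm of the calls: its adjusted p was 0.0615 when only the 2 groups were fitted and 0.0555 without old FO replicate 3, and its difference was 0.76 without old ABC replicate 1.

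Old ABC against old B1 compares the populations in which Lgals1, Lgals3, S100a4 and S100a6 lay above old FO, and here the tissue differs along with the cell type, so that these cannot be told apart. S100a6 and S100a4 fell in old ABC, and by limma no gene of the 7 rose, although Lgals3 was higher at an unadjusted p under 0.05. S100a6 fell by 1.86 ± 0.24 (3.64-fold lower, adjusted p = 0.000631) and S100a4 by 1.68 ± 0.24 (3.19-fold lower, adjusted p = 0.00113). These 2 calls of 7, 0 higher and 2 lower, stand beside 12.8% of all genes called, 7.4% higher and 5.43% lower, and the median difference was -0.23 against 0.02 over all genes.

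The galectins passed no test between old ABC and old B1. Lgals1 differed by 0.07 ± 0.13 (95% interval -0.21 to 0.36, adjusted p = 0.772) and Lgals8 by 0.26 ± 0.14 (95% interval -0.06 to 0.58, adjusted p = 0.297). Lgals3 was 0.72 ± 0.23 higher (95% interval 0.21 to 1.23, adjusted p = 0.0687) and Lgals9 0.56 ± 0.17 lower (a difference of -0.56, 95% interval -0.95 to -0.18, adjusted p = 0.0604), in each case with no overlap of arrays. Both lie near the threshold: Lgals3 was called without the 2 arrays that stood apart (0.81, adjusted p = 0.016) and without old FO replicate 2 alone (adjusted p = 0.0258), and Lgals9 without old ABC replicate 1 (-0.72, adjusted p = 0.0262). S100a10 differed by -0.23 ± 0.09 (95% interval -0.43 to -0.03, adjusted p = 0.137), again with no overlap.

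Old B1 against old FO had the widest S100 differences, and tissue and cell type again cannot be told apart. S100a4 rose by 3.93 ± 0.24 (15.2-fold, adjusted p = 2.51e-06), S100a6 by 2.99 ± 0.24 (7.94-fold, adjusted p = 1.82e-05) and S100a10 by 0.50 ± 0.09 (1.41-fold, adjusted p = 0.00339). Among the galectins Lgals3 rose by 2.23 ± 0.23 (4.69-fold, adjusted p = 9.17e-05) and Lgals1 by 2.06 ± 0.13 (4.16-fold, adjusted p = 2.86e-06), and Lgals9 fell by 0.60 ± 0.17 (1.51-fold lower, adjusted p = 0.0388). Of the 7 genes 6 were called, 5 higher and 1 lower, beside 16.4% of all genes, 8.4% higher and 8.02% lower, with a median difference of 2.06 against -0.04 over all genes.

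Lgals8 was lower by 0.31 ± 0.14 in old B1 (a difference of -0.31, 95% interval -0.63 to 0.01, adjusted p = 0.194), with no overlap, and was not called. The call of Lgals9 was lost in 9 of the 12 fits that left out a single array, with an adjusted p of up to 0.111 without old FO replicate 2, and that of S100a10 when only the 2 groups were fitted (adjusted p = 0.0569). The old FO arrays serve both this comparison and that of old ABC, and the old B1 arrays serve 3 of the 4 comparisons, so their values are not independent.

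Old B1 against young B1 asks what age changes within peritoneal B1 cells. None of the 7 genes was called, beside 0.291% of all genes, 0.159% higher and 0.132% lower, and the arrays of the groups overlapped for each of them. The median difference was -0.04, against -0.01 over all genes. The 95% intervals ran from -0.32 to 0.25 for Lgals1, from -0.65 to 0.37 for Lgals3, from -0.36 to 0.28 for Lgals8 and from -0.47 to 0.30 for Lgals9. For the S100 genes they ran from -0.60 to 0.47 for S100a4, from -0.54 to 0.55 for S100a6 and from -0.17 to 0.23 for S100a10. Adjusted p values by limma were 0.87 to 0.997, 0 of the 7 had an unadjusted p under 0.05, and 0 of the 7 were called under each of the 26 other settings tried.

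**Figure D2:**
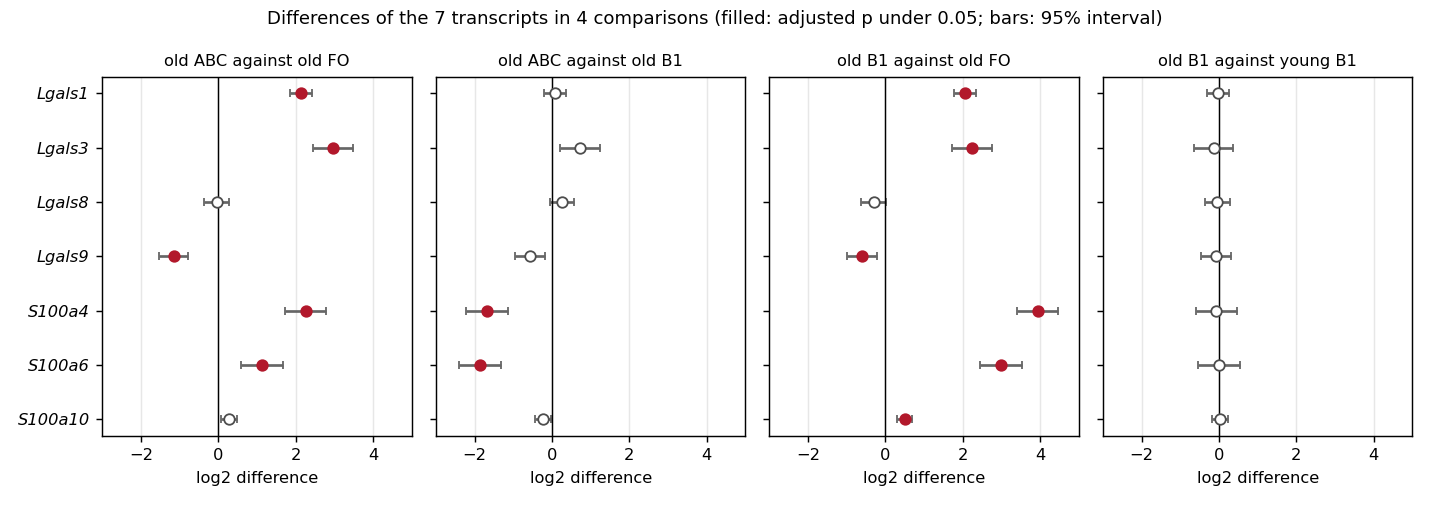
Log2 differences of the 7 genes in the 4 comparisons, with 95% intervals; filled points have a limma adjusted p under 0.05. S100a4 is 2.25 higher in old ABC than in old FO, 1.68 lower in old ABC than in old B1 and 3.93 higher in old B1 than in old FO, whereas all 7 intervals cross 0 in old B1 against young B1.

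Several genes had more than 1 probe set, and the size of the difference depended on which was read. The dimmer probe set of Lgals1 gave 7607, 9981 and 8757 in old ABC, 8126, 7870 and 10138 in old B1, 8824, 8538 and 9147 in young B1, and 1236, 1508 and 936 in old FO. The pattern was the same, and the difference larger, at 2.86 ± 0.18 in old ABC against old FO (7.25-fold) and 2.85 ± 0.18 in old B1 against old FO (7.19-fold). For S100a10 the second-brightest probe set read 6260.2, 6637 and 5906 in old ABC, 8134, 8742 and 8005 in old B1, 7999, 8712 and 8349.9 in young B1, and 4326, 4290.3 and 3726 in old FO. Its steps were wider than those of the brightest probe set.

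With this probe set, and with p adjusted over all 45037 probe sets, S100a10 rose by 0.61 ± 0.10 in old ABC against old FO (adjusted p = 0.00468), fell by 0.40 ± 0.10 in old ABC against old B1 (adjusted p = 0.0342) and rose by 1.01 ± 0.10 in old B1 against old FO (adjusted p = 0.000118). The dimmest probe set of S100a10 was under the median of its own array on 3 of 3 old ABC and 2 of 3 old FO arrays and differed by -0.30 ± 0.42 between them. Over the 12 arrays the paired probe sets had Pearson's r of 0.998 for Lgals1, 0.781 for Lgals8 and 0.941 for the brighter pair of S100a10, which describes arrays that share their groups.

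**Figure D3:**
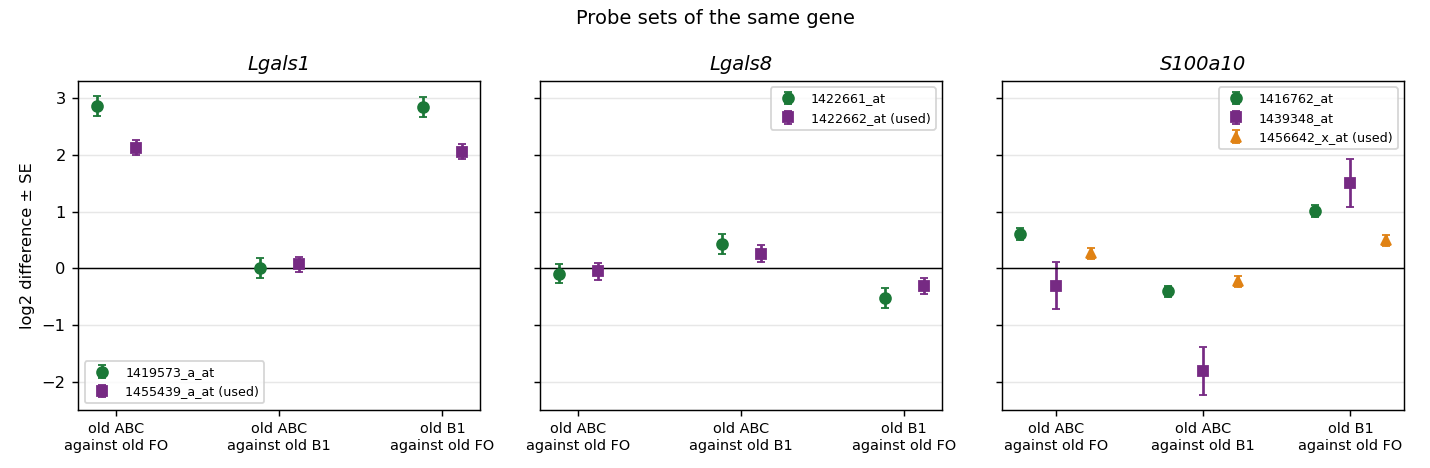
Log2 differences with standard errors for each probe set of Lgals1, Lgals8 and S100a10 in the 3 comparisons between cell types; "used" marks the brightest probe set of a gene. The other Lgals1 probe set gives 2.86 where the one used gives 2.13, and the S100a10 probe sets run from -0.30 to 0.61 in old ABC against old FO.

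The rest of both families was read from lists that also hold a binding protein each, Lgals3bp and S100pbp. Of 7 genes measured on the galectin list, Lgals3bp included, 1 rose and 0 fell in old ABC against old FO, 0 rose and 1 fell in old ABC against old B1, and 2 rose and 0 fell in old B1 against old FO. Lgalsl, a galectin-like gene, rose by 1.47 ± 0.39 in old ABC against old FO (adjusted p = 0.0362). Lgals4, a galectin best known from gut epithelium, fell by 0.87 ± 0.17 in old ABC against old B1 (adjusted p = 0.00633). In old B1 against old FO, Lgals4 rose by 0.87 ± 0.17 (adjusted p = 0.00471), as did Lgals3bp, a secreted ligand of galectin-3, by 1.27 ± 0.27 (adjusted p = 0.00797). The shares called were 14.3%, 14.3% and 28.6% in these comparisons, beside 9.96%, 12.8% and 16.4% of all genes, and the medians were 0.01, 0.06 and 0.07, against -0.03, 0.02 and -0.04 over all genes.

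Of 11 genes measured on the S100 list, 10 of them S100 genes and the other S100pbp, which was not called, 1 rose and 0 fell in old ABC against old FO, 2 rose and 3 fell in old ABC against old B1, and 3 rose and 0 fell in old B1 against old FO, with medians of 0.21, -0.07 and 0.00. The shares called were 9.09%, 45.5% and 27.3%, beside the same 9.96%, 12.8% and 16.4% of all genes. S100a1, best known from heart muscle, rose in old ABC against old FO by 1.92 ± 0.28 (adjusted p = 0.00122), fell in old ABC against old B1 by 1.04 ± 0.28 (adjusted p = 0.0307) and rose in old B1 against old FO by 2.96 ± 0.28 (adjusted p = 4.31e-05). S100a5, the gene between S100a4 and S100a6, read 60.4, 19.7 and 29.2 in old ABC, 225, 267 and 152.5 in old B1, 376, 555 and 515 in young B1, and 21.2, 15.8 and 19.6 in old FO. Its B1 arrays lay above all others, and it rose by 3.48 ± 0.36 in old B1 against old FO (adjusted p = 9.65e-05) and fell by 2.68 ± 0.36 in old ABC against old B1 (adjusted p = 0.000758). S100a8 and S100a9, the calprotectin subunits of neutrophils and also members of the neutrophil marker list, rose in old ABC against old B1 by 7.16 ± 1.15 (adjusted p = 0.00219) and 6.91 ± 1.12 (adjusted p = 0.00225). S100a13 rose in old B1 against old FO by 0.82 ± 0.16 (adjusted p = 0.00458).

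S100 proteins work through partners, and Anxa2 was highest in B1 cells and lowest in old FO, as S100a10 was. Anxa2, which encodes the annexin that S100a10 binds, read 4299, 3886 and 4329 in old ABC, 7034, 6898 and 7396 in old B1, 7444, 7814 and 7836 in young B1, and 381, 1072 and 352 in old FO. No group of old cells overlapped another, and the B1 groups were the highest. Anxa2 rose by 2.99 ± 0.33 in old ABC against old FO (adjusted p = 0.000224) and by 3.76 ± 0.33 in old B1 against old FO (adjusted p = 3.01e-05), and differed by -0.77 in old ABC against old B1 (adjusted p = 0.176). Ahnak, a giant scaffold that the S100a10 and annexin A2 complex binds, rose by 0.94 ± 0.13 in old ABC against old FO (adjusted p = 0.000817) and by 1.31 ± 0.13 in old B1 against old FO (adjusted p = 5.6e-05).

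Ahnak2 and Anxa5 also had their highest means in the B1 groups and their lowest in old FO. Tpm1, Myh9, Cacybp and Anxa1 did not. Ahnak2, a relative of Ahnak, rose by 2.61 ± 0.57 in old ABC against old FO (adjusted p = 0.0143), fell by 5.09 ± 0.57 in old ABC against old B1 (adjusted p = 0.000237) and rose by 7.70 ± 0.57 in old B1 against old FO (adjusted p = 8.76e-06). Anxa5, another annexin, fell by 0.88 ± 0.21 in old ABC against old B1 (adjusted p = 0.0202) and rose by 1.50 ± 0.21 in old B1 against old FO (adjusted p = 0.000726). Tpm1, which encodes a tropomyosin that S100 proteins bind, fell by 0.56 ± 0.11 in old ABC against old FO (adjusted p = 0.0072). Myh9, the myosin heavy chain bound by S100a4, differed by -0.05 (adjusted p = 0.803) and Cacybp, the partner of S100a6, by -0.24 (adjusted p = 0.604) in old ABC against old FO. Anxa1, the annexin that S100a11 binds, read 1400, 419 and 715 in old ABC, 840.5, 849 and 103 in old B1, 711, 1288 and 1114 in young B1, and 856, 650.1 and 817 in old FO. Its arrays overlapped in each comparison, and it differed by -0.04 ± 0.73 in old ABC against old FO (adjusted p = 0.99), 0.84 ± 0.73 in old ABC against old B1 (adjusted p = 0.515) and -0.88 ± 0.73 in old B1 against old FO (adjusted p = 0.49), with old B1 replicate 3 far below the other arrays. Of the 19 partners measured, 3 rose and 1 fell in old ABC against old FO, 0 rose and 2 fell in old ABC against old B1, and 4 rose and 1 fell in old B1 against old FO, with medians of -0.04, 0.04 and -0.04. These are 21.1%, 10.5% and 26.3% of the list, beside 9.96%, 12.8% and 16.4% of all genes, so that the share in old ABC against old B1 was under that of all genes.

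Among 23 glycoproteins and other partners of galectins, 9 rose and 0 fell in old ABC against old FO, 6 rose and 1 fell in old ABC against old B1, and 8 rose and 3 fell in old B1 against old FO, with medians of 0.35, 0.05 and 0.14. The shares called were 39.1%, 30.4% and 47.8%, beside 9.96%, 12.8% and 16.4% of all genes. Itgb1, an integrin chain that galectin-1 binds, rose by 3.35 ± 0.19 in old ABC against old FO (adjusted p = 4.27e-06) and by 3.19 ± 0.19 in old B1 against old FO (adjusted p = 2.26e-06). Itgam, the integrin chain CD11b, rose by 3.41 ± 0.31 (adjusted p = 6.54e-05) and Spn, the sialoglycoprotein CD43, by 3.03 ± 0.32 (adjusted p = 0.00018) in old ABC against old FO, and the labels do not say whether either was used in a sort. Havcr2, which encodes the galectin-9 receptor TIM-3, read 81.1, 64.05 and 83.65 in old ABC, 26.8, 23.2 and 16.3 in old B1, 18.6, 24.8 and 21.2 in young B1, and 17.3, 21.0 and 28.6 in old FO. These are dim values, and old ABC lay above every other array. Havcr2 rose by 1.80 ± 0.23 in old ABC against old FO (adjusted p = 0.000525) and by 1.81 ± 0.23 in old ABC against old B1 (adjusted p = 0.000493). Lgals9 was lowest in the same old ABC arrays.

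Further partners separated the B1 cells. Itga5, the fibronectin receptor chain, fell by 3.14 ± 0.34 in old ABC against old B1 (adjusted p = 0.000182) and rose by 4.20 ± 0.34 in old B1 against old FO (adjusted p = 1.61e-05). Cd40, a receptor for T cell help, rose by 1.20 ± 0.14 in old ABC against old B1 (adjusted p = 0.000347) and fell by 1.22 ± 0.14 in old B1 against old FO (adjusted p = 0.00021). Cd22, a sialic acid-binding inhibitory receptor, rose by 0.75 ± 0.10 in old ABC against old B1 (adjusted p = 0.000955), and Cd44, the hyaluronan receptor, by 1.81 ± 0.20 in old B1 against old FO (adjusted p = 0.000151). Ptprc, which encodes CD45, fell by 0.31 in old B1 against old FO (adjusted p = 0.0254).

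Enzymes that build galectin ligands went both ways. Of 26 measured, 4 rose and 3 fell in old ABC against old FO, 4 rose and 4 fell in old ABC against old B1, and 5 rose and 3 fell in old B1 against old FO, with medians of 0.03, 0.03 and 0.05. That is 26.9%, 30.8% and 30.8% of the list, beside 9.96%, 12.8% and 16.4% of all genes. Mgat5, whose branched N-glycans are high-affinity ligands of galectin-3, read 1562, 1612 and 1822 in old ABC, 1182, 1096 and 1308 in old B1, 1062, 1061 and 1117 in young B1, and 747, 1077 and 907 in old FO. It was highest in old ABC, and it rose by 0.88 ± 0.14 there against old FO (adjusted p = 0.00188) and by 0.48 against old B1 (adjusted p = 0.0429), with a difference of 0.41 in old B1 against old FO (adjusted p = 0.0704). St6gal1, whose sialic acid blocks galectin binding, differed by 0.02 in old ABC against old FO (adjusted p = 0.973).

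St3gal1, which caps core O-glycans with sialic acid, rose by 0.98 ± 0.14 in old ABC against old FO (adjusted p = 0.00147), fell by 0.93 ± 0.14 in old ABC against old B1 (adjusted p = 0.00173) and rose by 1.91 ± 0.14 in old B1 against old FO (adjusted p = 1.05e-05). The B1 groups were highest and old FO lowest, as for S100a4. B3gnt8, which extends lactosamine chains, fell by 1.77 ± 0.24 in old ABC against old FO (adjusted p = 0.000791) and by 2.10 ± 0.24 in old B1 against old FO (adjusted p = 0.000174). Gcnt1, which makes branched core O-glycans, rose by 1.96 ± 0.26 in old ABC against old B1 (adjusted p = 0.000626). B4galt3, a galactosyltransferase, fell by 0.62 ± 0.13 in old ABC against old FO (adjusted p = 0.0125). The dim genes Mgat4b and St3gal4 fell in old ABC against old B1, by 1.26 ± 0.19 and 2.08 ± 0.21, and rose in old B1 against old FO, by 1.44 ± 0.19 and 1.54 ± 0.21.

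Memory-type and effector lymphocyte genes outside the galectin and S100 families were counted in the same way. Of 23 measured, 10 rose and 0 fell in old ABC against old FO, 4 rose and 7 fell in old ABC against old B1, and 16 rose and 2 fell in old B1 against old FO, with medians of 0.35, -0.15 and 0.74. In this list 43.5%, 47.8% and 78.3% were called, beside 9.96%, 12.8% and 16.4% of all genes. Lmna, which encodes lamin A, read 638, 364 and 337 in old ABC, 6677, 6125 and 5144 in old B1, 5453, 6908 and 6654 in young B1, and 98.3, 75.35 and 107 in old FO. Old ABC lay between the B1 cells and old FO without overlap, as for S100a6. Lmna rose by 2.21 ± 0.24 in old ABC against old FO (adjusted p = 0.000181), fell by 3.80 ± 0.24 in old ABC against old B1 (adjusted p = 5.27e-06) and rose by 6.00 ± 0.24 in old B1 against old FO (adjusted p = 3.85e-07).

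Cd80, a costimulatory ligand and a marker of mouse memory B cells, rose by 4.38 ± 0.26 in old ABC against old FO (adjusted p = 4.75e-06) and by 3.99 ± 0.26 in old B1 against old FO (adjusted p = 3.69e-06), and Nt5e, the ectonucleotidase CD73, rose by 4.46 ± 0.45 in old ABC against old FO (adjusted p = 0.00013). Tagln2, an actin-binding protein, fell by 2.12 ± 0.11 in old ABC against old B1 (adjusted p = 1.77e-06) and rose by 2.21 ± 0.11 in old B1 against old FO (adjusted p = 8.95e-07). Plp2 fell by 0.99 ± 0.10 in old ABC against old B1 (adjusted p = 0.000134), and Ccr7, a lymph node homing receptor, rose by 1.56 ± 0.19 (adjusted p = 0.000372). In old B1 against young B1, Ccr7 fell by 1.20 ± 0.19 (adjusted p = 0.0307) and was the 1 gene called in any of the 6 lists. Ahnak, Anxa2, Cd44 and Itgb1 stand in 2 of these lists.

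Lgals1 and Lgals3 had like patterns over the arrays, and so had the S100 genes. Pearson's r over the 12 arrays, which share their groups, was 0.966 between S100a4 and S100a6, 0.936 between S100a4 and S100a10 and 0.933 between Lgals1 and Lgals3, and it was -0.8425 between Lgals3 and Lgals9. Among 8776 genes at or above the median level, the most like Lgals1 were Nrp2 (r = 0.990) and Itgb1 (r = 0.9895), the most like Lgals3 were Tubb2b (r = 0.977) and Rilpl1 (r = 0.975), and the most like Lgals9 were Entpd5 (r = 0.959) and Cd55 (r = 0.956). S100a4 was most like Upb1 (r = 0.986) and Myadm (r = 0.984), S100a6 was most like Lmna (r = 0.989) and Ahnak2 (r = 0.988), and S100a10 was most like Myadm (r = 0.968) and Sox5 (r = 0.963). For Lgals8 the values were lower, with Akap8 at 0.923 and Chfr at 0.879.

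Macrophages and neutrophils also make galectins and S100 proteins. Macrophage markers, like Lgals1 and S100a4, were higher in old ABC and the B1 groups than in old FO, whereas neutrophil markers were high in old ABC and not in the B1 groups. Of 18 macrophage and monocyte markers, 13 rose and 0 fell in old ABC against old FO, 2 rose and 3 fell in old ABC against old B1, and 15 rose and 1 fell in old B1 against old FO. These are 72.2%, 27.8% and 88.9% of the list, beside 9.96%, 12.8% and 16.4% of all genes called. The summed intensity of the 18 was 19540 to 21070 in old ABC, 14700 to 36660 in old B1, 19600 to 32110 in young B1 and 4705 to 6794 in old FO, and Gata6 was under the array median on all arrays. Within old B1, replicate 3 had the lowest sum, 14700 against 36660 and 34700, and the highest S100a4, S100a6 and Lgals3 of the 3 arrays. Within young B1, replicate 3 had the highest sum, 32110 against 19600 and 24200, and the highest of these genes. Old ABC replicate 1 (21070) and old FO replicate 3 (6794) had the highest sums of their groups. The former had the highest S100a4 and S100a6 and the lowest Lgals3, the latter the highest S100a4 and Lgals3 and the lowest S100a6. Without the 2 arrays that stood apart, old B1 replicate 3 included, the members called in old B1 against old FO numbered 5, all higher, beside 22% of all genes called.

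Neutrophil markers were highest in old ABC. Of 11 measured, 6 rose and 0 fell in old ABC against old FO, 9 rose and 0 fell in old ABC against old B1, and by limma 0 rose and 0 fell in old B1 against old FO (median -1.62). These are 54.5%, 81.8% and 0% of the list, beside 9.96%, 12.8% and 16.4% of all genes called. The sums of the 11 were 20790 to 35260 in old ABC, 234 to 449.8 in old B1, 329 to 1508 in young B1 and 474 to 10010 in old FO, and Csf3r and Cxcr2 were under the array median on all old ABC arrays. Old ABC replicate 1 had the highest neutrophil sum, 35260, along with the highest S100a6 and S100a4 and the lowest Lgals1 and Lgals3 of its group. This array also had the highest macrophage (21070), mast cell (1216), T cell (3820), NK cell (2616) and plasma cell (32450) sums of old ABC. The dendritic cell sum was highest on old ABC replicate 3 (8206). In turn, old FO replicate 3, with a neutrophil sum of 10010, had the highest S100a4 and Lgals3 and the lowest S100a6 and Lgals1 of the old FO arrays. In the B1 groups, where the neutrophil sums were at most 1508, S100a4 and S100a6 were at their highest.

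Summed mast cell markers were highest in the B1 groups, as the S100 genes were, but single markers differed. Kit (mean 32.04 in old ABC, 24.98 in old B1), Fcer1a (160.2, 128.1) and Ms4a2 (71.72, 69.67) had the higher mean in old ABC. The remaining mast cell markers had the higher mean in old B1. Of 9 measured, 3 rose and 0 fell in old ABC against old FO, 0 rose and 4 fell in old ABC against old B1, and 6 rose and 0 fell in old B1 against old FO, with medians of 1.49, -0.15 and 3.98. These are 33.3%, 44.4% and 66.7% of the list, beside 9.96%, 12.8% and 16.4% of all genes called. The sums of the 9 were 442 to 1216 in old ABC, 2054 to 5025 in old B1, 2321 to 10180 in young B1 and 192 to 210.2 in old FO, and Tpsab1 was under the array median on all 12 arrays. In old ABC against old FO, 6 of 10 plasma cell markers rose (29860 to 32450 in old ABC, 14100 to 25960 in old FO), 4 of 11 dendritic cell markers (7933 to 8206 in old ABC, 3622 to 5254 in old FO), 2 of 7 NK cell markers and 1 of 10 T cell markers. The shares were 60%, 36.4%, 28.6% and 10%, beside 9.96% of all genes called, so the T cell share was near that of all genes. The part of these cells in the galectin and S100 differences was not tested.

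**Figure D4:**
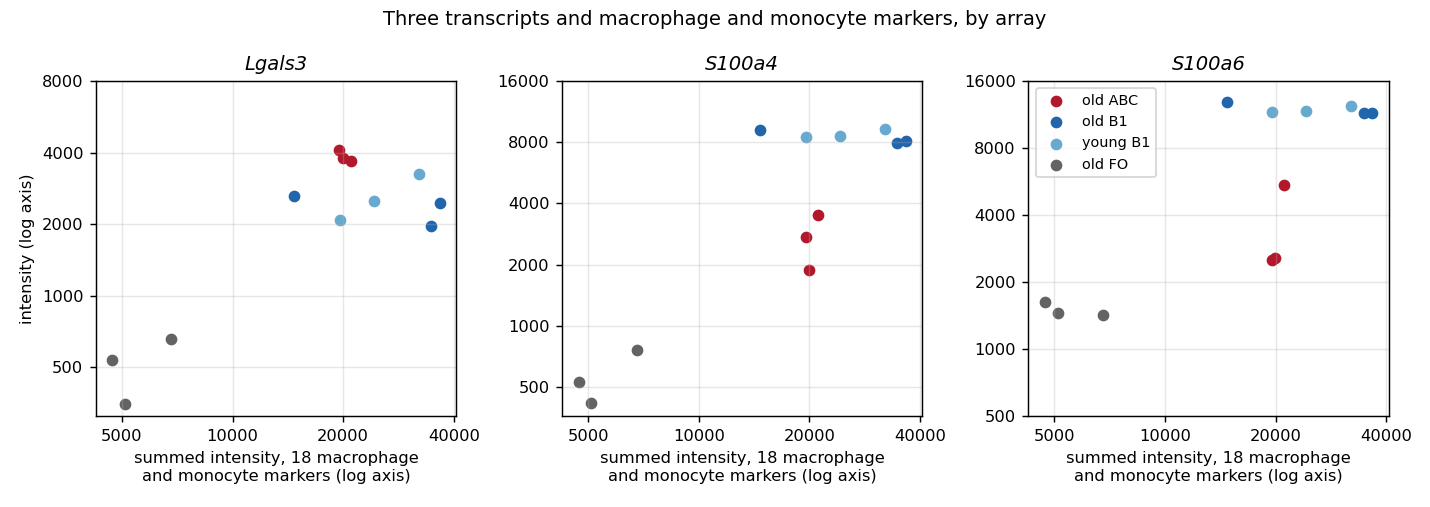
Intensity of Lgals3, S100a4 and S100a6 against the summed intensity of 18 macrophage and monocyte markers on each of the 12 arrays (both axes log). The old B1 arrays span 14700 to 36660 on the marker axis while S100a4 stays between 7915 and 9209, and old ABC arrays with marker sums of 19540 to 21070 have S100a4 of 1889.6 to 3516. The young B1 arrays span 19600 to 32110, and each gene shown is highest of that group on the array at 32110.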

How the data were processed

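Total RNA of sorted B cells was isolated with a picoPure kit and hybridised as biotin-labelled cRNA, per the labels. The intensity deposited by the authors is on a linear scale, from 3.00 to 22068; RMA and affy were used per the submitters' processing notes, and their versions were not given in the sources used here. All 12 value columns were assigned by title, and 0 columns were left over.

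The log2 of each intensity was fitted with 4 group means in limma 3.58.1 (R 4.3.3; lmFit and eBayes, 8 residual degrees of freedom, prior 2.37). Of the probe sets, 34945 carried 1 symbol, 932 several and 9160 none. A gene was read from its brightest single-symbol probe set over the 12 arrays, with no filter, and p-values were adjusted by Benjamini-Hochberg within a comparison. The number of arrays limits the precision, and no detection calls were used. The files hold symbols only through the platform annotation.

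Of the 8 members, the 7 with a value are reported whatever their result, and S100a11 had no value. From each list up to 4 called genes with the lowest p were named per comparison, with set partners (Anxa1, Anxa2, Myh9, Cacybp, Havcr2, Ptprc, Mgat5, St6gal1) and the 2 genes most like each member. Members, lists and tests were chosen with earlier results of these data known. The fit was tested on simulated data. Alternatives were other limma settings, normalizations, offsets, filters, probe set rules and leaving out arrays. Figures were drawn with matplotlib in Python.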

Additional observations from a re-analysis of the deposited data

How the results depend on the processing

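Of 28 differences recomputed under 25 settings each, 647 of 700 values kept their direction and side of the threshold, 17 lost and 17 gained a call, and 19 changed sign, 0 of them among called differences. Old ABC against old B1 had 2 genes called, but 4 with quantile normalization and 4 with a filter on dim genes, where Lgals3 and Lgals9 joined. The ranges were 4 to 6 called in old ABC against old FO, 2 to 4 in old ABC against old B1, 4 to 7 in old B1 against old FO and 0 to 0 in old B1 against young B1. Over the same settings, all genes called ran from 990 to 3961, 1062 to 3592, 1455 to 5001 and 2 to 316. The 7 in old B1 against old FO came with array weights, where 5001 genes were called.

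With the replicate block in limma the counts were 5, 2, 5 and 0, beside 1543, 2034, 2570 and 32 of all genes, and Lgals9 in old B1 against old FO had an adjusted p of 0.0651. With group means taken out, same-numbered arrays correlated at -0.391 to 0.228, and 1, 2, 1 and 0 of 6 arrays correlated best with their own number in the 4 comparisons. Such values from groups of 3 arrays, 2 of the 12 standing apart, cannot decide whether a number marks a shared mouse, sort or day.

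The largest change of sign was that of S100a10 in old ABC against old FO, reported as 0.27. In old ABC against old FO, Lgals8 was 0.017 without the 2 arrays that stood apart and -0.168 to 0.018 without single arrays, and S100a10 was -0.30 with the probe set of largest interquartile range. In old B1 against young B1, Lgals8 was 0.018, S100a6 -0.0036 and S100a10 -0.0049 with cyclic loess. S100a6 was -0.058 with array weights and -0.050 without the 2 arrays, and S100a10 was -0.13 with the probe set of largest interquartile range and -0.038 with the mean of probe sets. Without single arrays, Lgals1 ran from -0.075 to 0.0014, Lgals3 from -0.292 to 0.033, Lgals8 from -0.124 to 0.070 and S100a6 from -0.050 to 0.033. The causes were not tested. No groups of 3 were tested for outlying arrays.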
